A study of Mus musculus with 12 samples.

Results

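The genes described here are 10 genes of the methylation of histone H3 at lysine 9 (H3K9), out of 24888 entries per library: 6 writers (Ehmt1, Ehmt2, Suv39h1, Suv39h2, Setdb1 and Setdb2), 2 partners of the writers (Trim28 and Wiz) and 2 erasers (Kdm3a and Kdm4b). They were chosen by name, from their known roles, with earlier results of these data known. Their RNA was measured in cultured mouse adipocytes, with 12 libraries that form 6 groups of 2. Preadipocytes from the inguinal white fat of C57BL/6 mice, labelled ATF7KO (a label for loss of the transcription factor ATF7) or WT, became beige adipocytes when rosiglitazone was added during differentiation and white adipocytes when it was left out, which gave ATF7KO beige, WT beige, ATF7KO white and WT white libraries. C3H10t1/2, a single mouse mesenchymal line that can form adipocytes, was differentiated with rosiglitazone and was either ATF7-overexpressing or a control. Rosiglitazone activates PPARγ, the nuclear receptor that drives adipogenesis. How ATF7 was deleted or overexpressed is not given in the sources used here, and nothing says that the replicates were separate cultures or animals, so p-values measure only the spread between these libraries, which may be technical.

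H3K9 methylation is a mark of silent chromatin. EHMT1 (GLP) and EHMT2 (G9a) work as a pair that adds mono- and dimethylation in euchromatin, with WIZ, a zinc finger protein, as a partner of the pair. SUV39H1 and SUV39H2 add the trimethylation of pericentric heterochromatin. SETDB1 trimethylates H3K9 at repeats and silenced genes, where TRIM28 (KAP1) brings it through KRAB zinc finger proteins, and SETDB2 is a related enzyme. KDM3A removes mono- and dimethylation, KDM4B removes di- and trimethylation, and both use oxygen as a substrate and are known to be induced by hypoxia-inducible factor (HIF). In fat, EHMT1 is known as an enzyme of the PRDM16 complex of brown adipocytes, G9a and SETDB1 as brakes on adipogenesis, and KDM3A as a factor that thermogenic genes need. ATF7 is known from macrophages as a factor that brings G9a to silent genes.

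Values were FPKM, which scale fragments by transcript length and by the library's total, so levels of different genes can be set side by side, but the depth of the libraries is unknown and no counting error can be given. Summed FPKM lay between 225536 and 272371 per library, between 9844 and 10877 entries reached 1 FPKM, and the 2 libraries of a group correlated across entries on the log2 scale at 0.984 to 0.992 (Pearson's r). Atf7 itself was not lower in the libraries labelled ATF7KO. It had 7.26 and 7.94 FPKM in ATF7KO beige libraries and 7.80 and 7.83 in WT beige libraries, and 6.88 and 7.73 FPKM in ATF7KO white libraries against 9.10 and 7.10 in WT white libraries. A gene value can include RNA from undeleted parts of a gene, so these libraries are called ATF7KO-labelled throughout. In C3H10t1/2, Atf7 had 41.2 and 39.1 FPKM in ATF7-overexpressing libraries and 8.52 and 9.09 in control libraries. Adipocyte markers summed to 11650 to 13130 FPKM in the beige and 3480 to 5097 in the white primary libraries. Ucp1, the thermogenic uncoupling protein, was listed at 0 in all white libraries. White libraries also held macrophage RNA: 12 macrophage markers summed to 24.7 to 29.6 FPKM in beige libraries, to 723 to 768 in ATF7KO-labelled white libraries and to 500 to 543 in WT white libraries. In such bulk libraries, fewer cells of a type and less RNA per cell cannot be told apart.

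All 10 genes stood at 1 locus each and none was at 0 in any library. Ehmt2 and Trim28 were the most abundant, with means over the 12 libraries of 18.4 and 18.1 FPKM, above 92.6% and 92.5% of entries. Kdm4b (7.55), Kdm3a (7.47), Ehmt1 (6.40) and Wiz (4.57 FPKM) came next. Setdb1 averaged 3.20, Setdb2 1.75 and Suv39h1 1.68 FPKM. Suv39h2 was the lowest at 0.361 FPKM, never reached 1 FPKM and was therefore not tested. Within a gene, the ratio of the highest to the lowest library was smallest for Ehmt1 (1.38) and Wiz (1.53) and largest for Kdm3a (3.10).

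**Figure D1:**
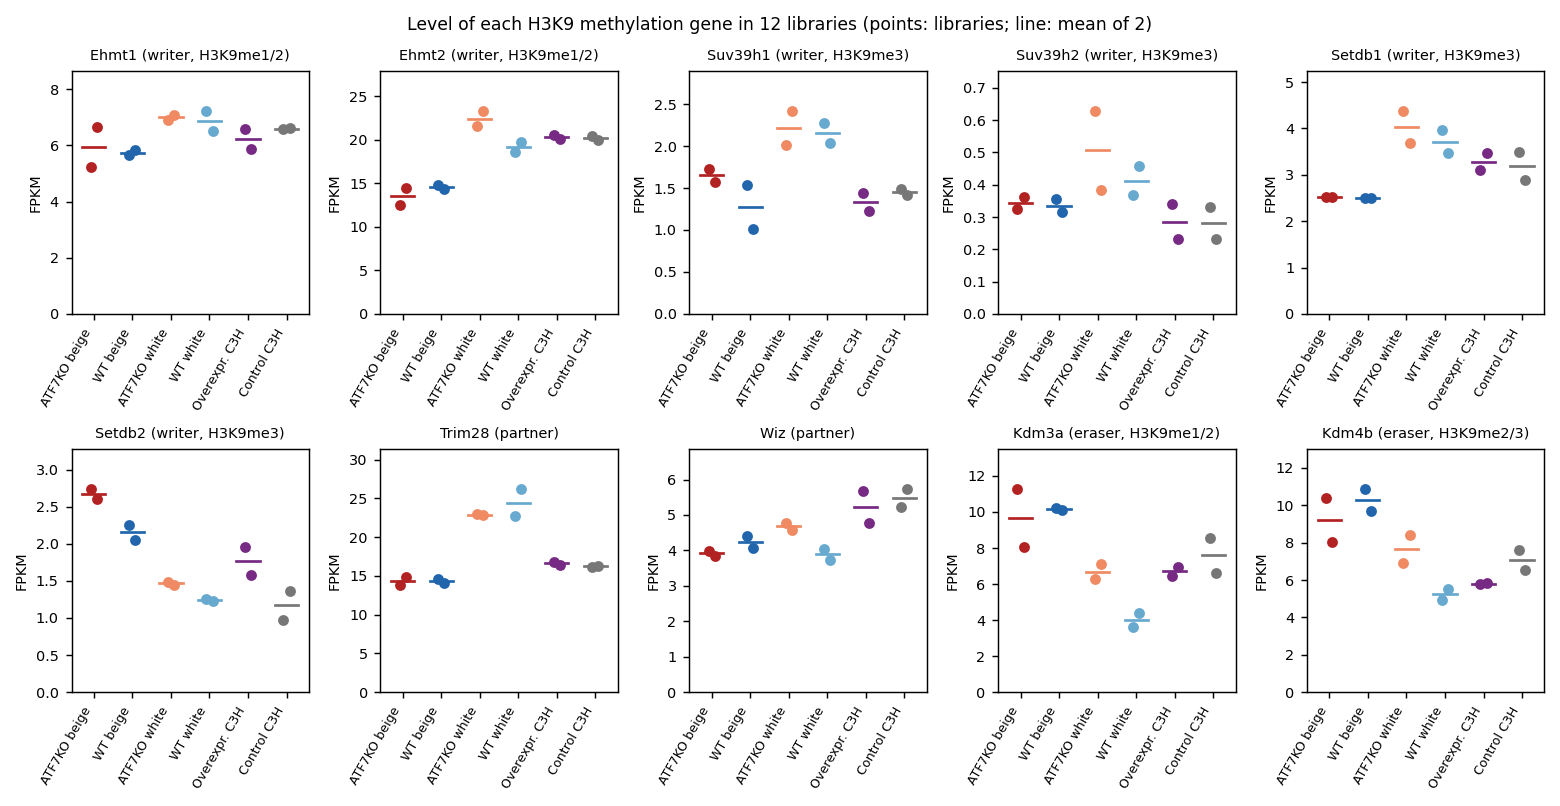
FPKM (vertical axes, each starting at 0) of the 10 H3K9 genes in the 12 libraries, 1 panel a gene; points are libraries and lines the mean of the 2 libraries of a group. Kdm3a, Kdm4b and Setdb2 sit higher in beige than in white primary cultures of the same label, apart from 1 overlap in ATF7KO-labelled Kdm4b, and Ehmt2, Setdb1 and Trim28 sit lower.

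The genes lie on different chromosomes or far apart on the same one (mm10). Ehmt2 spans chr17:34898492-34914050, Wiz chr17:32354050-32389439 and Kdm4b chr17:56326050-56402873. Ehmt1 spans chr2:24790769-24919609 and Suv39h2 chr2:3455815-3474986. Suv39h1 spans chrX:8061171-8074760, Setdb1 chr3:95323525-95357202 and Setdb2 chr14:59402011-59440877. Trim28 spans chr7:13024152-13031032 and Kdm3a chr6:71588970-71632917. Exons of some members overlap another gene in the GENCODE annotation. For Wiz, 22.1% of exon bases are shared with the lincRNA Gm26858 on the other strand. For Suv39h1, 14.6% are shared with the antisense gene Gm14820 and for Suv39h2 8.1% with Dclre1c. For Setdb1, 3.6% are shared with Gm37500 and 1.1% with Cers2, both on the other strand. Cers2 had 40.9 to 49.1 FPKM in beige and 22.8 to 28.6 FPKM in white primary libraries, far above Setdb1. For Ehmt1, 0.3% are shared with Gm37139 on the same strand. Whether strand was used in the authors' quantification is not given in the sources used here, so the values of these genes may include reads of a neighbour. No such overlap was found for Ehmt2, Setdb2, Trim28, Kdm3a or Kdm4b.

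Promoters of 9 of the 10 genes were taken from RefSeq (GRCm38.p6), as 250 bases before and 50 after the start nearest to the deposited one. They were searched on both strands for letters linked to the factors at hand: TGACGTCA, the cAMP response element that ATF proteins can bind, its half-site TGACG, which the full element contains, ACGTG and GCGTG, the forms of the core of HIF sites, and the consensus direct repeat of PPARγ with its partner RXR. TGACGTCA was in 1 of the 9 promoters, that of Suv39h2 at position -85, and in 1.79% of the 32851 mouse promoters of the table. TGACG was in 2 of the 9 (Suv39h1 and Suv39h2) and in 20.8% of all. ACGTG was in 3 of the 9 (Ehmt2, Trim28 and Wiz) and in 19.6% of all, GCGTG in 6 of the 9 and 32.4% of all, and either form in 7 of the 9 and 43.8% of all. The direct repeat was in 0 of the 9 and in 0.0396% of all. These are matches of letters, not sites. The promoters of 3 genes are shown as the 250 bases before the start, 5′ to 3′ on the gene's strand, with matched letters in capitals: that of Suv39h2 for the full element, which also holds GCGTG at position -20, that of Ehmt2 for a pair of CACGTG palindromes, each holding ACGTG on both strands, and that of Kdm3a, the gene with the widest range of levels, in which GCGTG at position -27 was the one match. They cover chr2:3474987-3475236 (minus strand), chr17:34898224-34898473 (plus strand) and chr6:71632918-71633167 (minus strand).
Suv39h2: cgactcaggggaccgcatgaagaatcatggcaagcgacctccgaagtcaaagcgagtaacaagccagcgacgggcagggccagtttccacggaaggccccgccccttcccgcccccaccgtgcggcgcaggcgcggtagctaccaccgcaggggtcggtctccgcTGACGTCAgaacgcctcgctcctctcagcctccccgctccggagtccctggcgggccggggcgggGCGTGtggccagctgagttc
Ehmt2: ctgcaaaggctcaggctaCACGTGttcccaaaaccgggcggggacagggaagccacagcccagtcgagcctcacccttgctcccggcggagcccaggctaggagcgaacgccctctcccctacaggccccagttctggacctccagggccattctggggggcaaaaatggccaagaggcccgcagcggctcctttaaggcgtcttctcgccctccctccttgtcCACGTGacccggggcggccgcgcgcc
Kdm3a: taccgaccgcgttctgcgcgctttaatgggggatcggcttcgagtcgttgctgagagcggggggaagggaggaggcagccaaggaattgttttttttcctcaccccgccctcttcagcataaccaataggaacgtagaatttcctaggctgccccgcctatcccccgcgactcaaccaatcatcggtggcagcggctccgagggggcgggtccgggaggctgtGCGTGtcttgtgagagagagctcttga

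In WT cultures, beige adipocytes had more RNA of both erasers and of Setdb2, and less of Ehmt2, Suv39h1, Setdb1 and Trim28, than white adipocytes. Of the 9 genes tested, 3 were higher and 4 lower in beige, by limma on log2(FPKM + 1) with Benjamini-Hochberg adjusted p under 0.05, a threshold kept throughout. Beige and white cultures differed widely: 53.7% of the 11294 entries tested passed in this comparison, 21.6% higher and 32.1% lower, and the 7 of 9 genes are to be read against that background. The median log2 difference of the 9 genes was -0.22, beside -0.10 over all entries tested. All 9 tested genes differed without overlap of the beige and white libraries, as did 77.5% of all entries.

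Among the writers, Ehmt2 had 14.8 and 14.4 FPKM in WT beige libraries and 18.6 and 19.8 in WT white libraries. Both beige libraries lay below both white ones (log2 difference -0.37, SE 0.101, limma adjusted p = 0.013), and the call was lost without WT beige replicate 1 (adjusted p = 0.0554), WT beige replicate 2 (0.0781) or WT white replicate 2 (0.0586). Ehmt1, its partner enzyme, had 5.64 and 5.84 FPKM in WT beige libraries against 7.22 and 6.53 in WT white libraries, which did not overlap but did not pass (-0.22, 95% interval -0.48 to 0.04, adjusted p = 0.132), except without small and predicted RNA genes (adjusted p = 0.0498). Setdb1 had 2.49 and 2.50 FPKM in WT beige libraries and 3.97 and 3.46 in WT white libraries (-0.43, SE 0.106, adjusted p = 0.00831). The Setdb1 call was lost with quantile normalization (adjusted p = 0.0941) and without WT white replicate 1 (0.0512). Setdb2 moved the other way, with 2.25 and 2.06 FPKM in WT beige libraries and 1.26 and 1.23 in WT white libraries, a difference beyond the replicate spread (0.49, SE 0.095, adjusted p = 0.00233). Suv39h1 had 1.53 and 1.01 FPKM in WT beige libraries and 2.27 and 2.04 in WT white libraries (-0.48, SE 0.133, adjusted p = 0.0143), without overlap. This call was lost with quantile normalization (adjusted p = 0.167) and without WT beige replicate 2 (0.116) or WT white replicate 1 (0.0671). Its paralogue Suv39h2 had 0.355 and 0.315 FPKM in WT beige libraries and 0.368 and 0.457 in WT white libraries, all low and close together.

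Of the partners, Trim28 had the largest fall, with 14.6 and 14.1 FPKM in WT beige libraries and 22.7 and 26.1 in WT white libraries (-0.73, SE 0.099, adjusted p = 0.000314). Wiz had 4.41 and 4.08 FPKM in WT beige libraries and 4.04 and 3.74 in WT white libraries, and the difference was within the error (0.10, 95% interval -0.11 to 0.31).

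The erasers had the largest rises. Kdm3a had 10.2 and 10.1 FPKM in WT beige libraries and 3.63 and 4.38 in WT white libraries (1.16, SE 0.149, adjusted p = 0.000219). Kdm4b had 10.8 and 9.71 FPKM in WT beige libraries and 4.94 and 5.52 in WT white libraries (0.86, SE 0.140, adjusted p = 0.000896). For both, every WT beige library was well above every WT white library, and both calls held in each alternative setting and with any 1 library left out.

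Several gene groups moved with these values in WT cultures. Of 18 hypoxia and HIF target genes, 16 were higher and 2 lower in beige, beside 21.6% of all entries higher and 32.1% lower. Of these 18 genes, 2 reached 1 FPKM only in beige cultures, so they could enter the test only through cultures where they were high. Egln3, an oxygen sensor that HIF induces, had 85.5 and 69.0 FPKM in WT beige libraries and 2.31 and 1.84 in WT white libraries, and the glucose transporter gene Slc2a1 had 125.3 and 89.2 FPKM against 8.12 and 6.81. The hypoxia list was not alone in rising. Of 10 adipocyte markers, 7 were higher and 0 lower in beige (median log2 difference 1.15, beside 1.7 for the hypoxia list). Of 11 thermogenic markers tested, 11 were higher (median 3.69), but 7 of them reached 1 FPKM only in beige cultures. The part of the hypoxia, adipocyte and thermogenic genes in the eraser values was not tested. All 12 macrophage markers and all 9 preadipocyte markers tested were lower in beige. Of these, 4 macrophage markers and 1 preadipocyte marker reached 1 FPKM only in white cultures. Their direction was thus fixed by the filter, and they add nothing to the counts. The 10 preadipocyte markers of the list summed to 379.5 to 518.3 FPKM in ATF7KO-labelled beige and 480.9 to 482.5 in WT beige libraries, and to 2182 to 2336 FPKM in ATF7KO-labelled white and 2020 to 2562 in WT white libraries. Of 18 cell cycle genes tested, 15 reached 1 FPKM only in white cultures, so their calls are not counted here. The cell cycle genes summed to 15.1 to 17.9 FPKM in the beige libraries of both labels, against 52.1 to 53.8 FPKM in ATF7KO-labelled white and 37.2 to 38.3 FPKM in WT white libraries. The part of preadipocytes, dividing cells and macrophages in the writer values of white cultures was not tested.

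**Figure D2:**
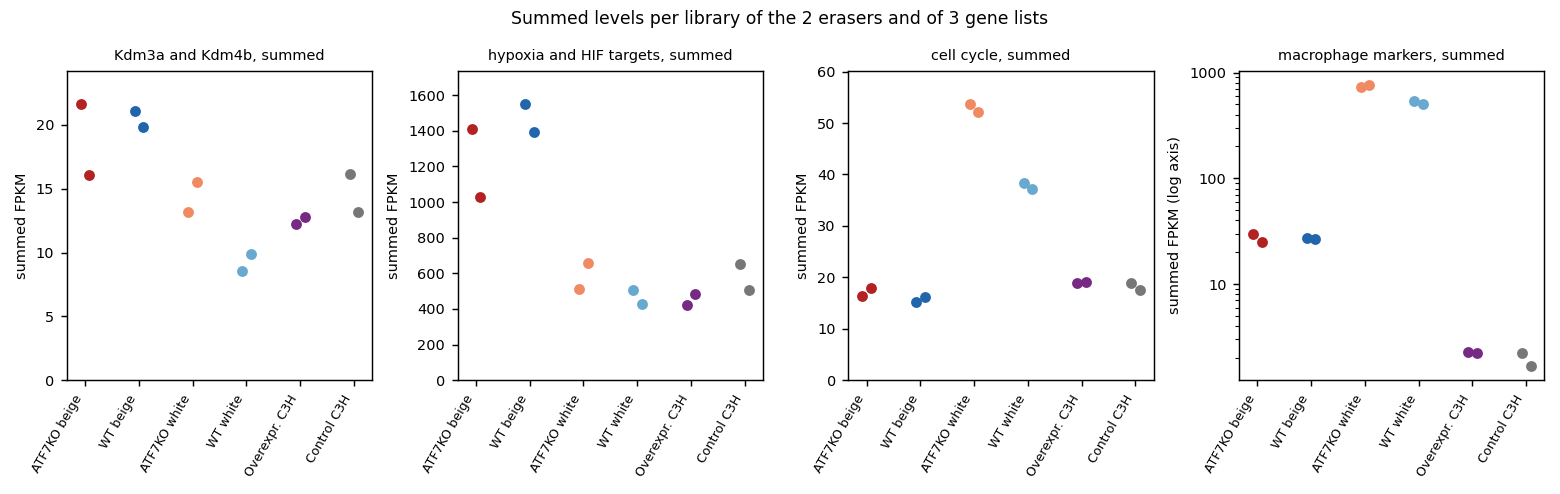
Summed FPKM per library (points) of Kdm3a and Kdm4b, of 18 hypoxia and HIF targets, of 20 cell cycle genes and of 12 macrophage markers (log axis in the last panel only), by group. Among primary libraries the eraser and hypoxia sums are highest in beige cultures, and the cell cycle and macrophage sums are highest in ATF7KO-labelled white libraries.

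In ATF7KO-labelled cultures Ehmt2, Setdb1 and Trim28 were again lower and Setdb2 and Kdm3a again higher in beige than in white, while Ehmt1, Suv39h1, Wiz and Kdm4b did not pass. Whether the changes differed in size between the labels is given by the interaction test further on, which no member passed. Of the 9 genes, 2 were higher and 3 lower in beige, while 61% of all entries tested passed, 26.6% higher and 34.3% lower. Their median log2 difference was -0.21, beside -0.06 over all entries. The beige and white libraries did not overlap for 8 of the 9 genes and for 80.8% of all entries. Ehmt2 had 12.6 and 14.5 FPKM in ATF7KO-labelled beige libraries and 21.5 and 23.3 in ATF7KO-labelled white libraries (-0.69, SE 0.101, limma adjusted p = 0.000372). Trim28 had 13.8 and 14.9 FPKM in ATF7KO-labelled beige libraries and 23.0 and 22.8 in ATF7KO-labelled white libraries (-0.64, SE 0.099, adjusted p = 0.00053). Setdb1, the enzyme that TRIM28 recruits, had 2.53 and 2.51 FPKM in ATF7KO-labelled beige libraries and 4.37 and 3.68 in ATF7KO-labelled white libraries (-0.51, SE 0.106, adjusted p = 0.00288). Setdb2 again stood apart from the other writers, with 2.73 and 2.61 FPKM in ATF7KO-labelled beige libraries and 1.48 and 1.45 in ATF7KO-labelled white libraries (0.57, SE 0.095, adjusted p = 0.000748).

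Kdm3a had 11.2 and 8.03 FPKM in ATF7KO-labelled beige libraries and 6.29 and 7.10 in ATF7KO-labelled white libraries (0.45, SE 0.149, adjusted p = 0.0269). The groups did not overlap, but the call was lost without ATF7KO beige replicate 1 (0.23, adjusted p = 0.16), ATF7KO white replicate 1 (adjusted p = 0.139) or ATF7KO white replicate 2 (0.0509), without the filter on low values (0.0556) and without small and predicted RNA genes (0.0586). Kdm4b had 10.4 and 8.03 FPKM in ATF7KO-labelled beige libraries and 6.91 and 8.43 in ATF7KO-labelled white libraries, which overlapped (0.23, 95% interval -0.09 to 0.55, adjusted p = 0.178), and it passed only without ATF7KO beige replicate 2 (adjusted p = 0.045). The 2 ATF7KO-labelled beige libraries were apart for both erasers, and the hypoxia and HIF targets were apart in the same order, at 1412 FPKM in replicate 1 and 1030 in replicate 2. In 5 of the 6 groups the library with the higher eraser sum also had the higher hypoxia sum, WT white being the exception. Some eraser sums were close, as in ATF7-overexpressing libraries (12.2 and 12.8 FPKM). This order was not tested, and no other list was set beside the erasers in this way. Not passing were Suv39h1, with 1.73 and 1.58 FPKM in ATF7KO-labelled beige libraries and 2.01 and 2.42 in ATF7KO-labelled white libraries (-0.28, adjusted p = 0.102), Wiz (-0.21, adjusted p = 0.0812) and Ehmt1 (-0.21, adjusted p = 0.139), although the beige libraries of each lay below the white ones. Ehmt1 passed without ATF7KO beige replicate 2 (adjusted p = 0.023), and Ehmt1, Suv39h1 and Wiz passed without small and predicted RNA genes (adjusted p = 0.0494, 0.0468 and 0.0263).

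**Figure D3:**
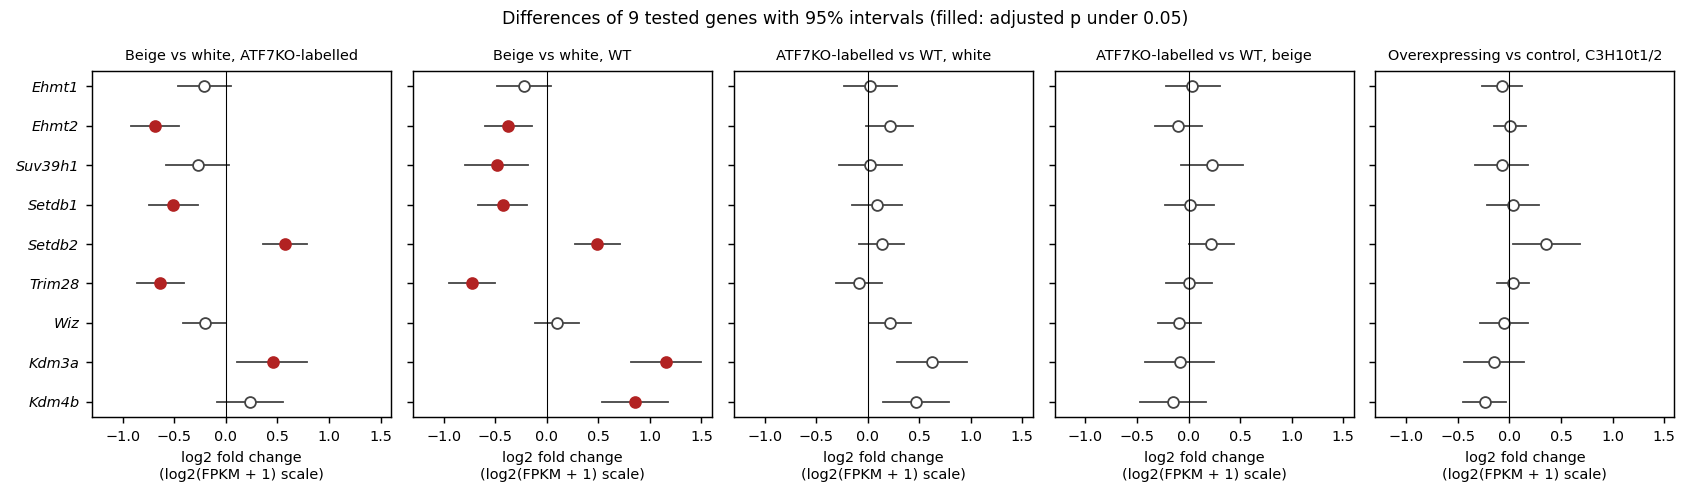
Log2 differences (horizontal axes, log2(FPKM + 1) scale) of the 9 tested genes in 5 comparisons, with 95% intervals; filled points passed at adjusted p under 0.05. The 5 filled points of ATF7KO-labelled and the 7 of WT cultures are all in the beige against white panels.

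The comparison of ATF7KO-labelled with WT white adipocytes sets the enzymes' own RNA beside the genotype label, which the Atf7 values did not bear out. None of the 9 genes passed (0 of 9, limma, with 3 at an unadjusted p under 0.05), and 1.89% of all entries did, with 19.9% at an unadjusted p under 0.05. The largest differences were again in the erasers. Kdm3a had 6.29 and 7.10 FPKM in ATF7KO-labelled white libraries and 3.63 and 4.38 in WT white libraries, without overlap (0.62, SE 0.149, 95% interval 0.28 to 0.96, adjusted p = 0.0788). It passed when all 12 libraries were fitted together (adjusted p = 0.0461) and without ATF7KO beige replicate 1 (0.0392) or replicate 2 (0.0393). Kdm4b had 6.91 and 8.43 FPKM in ATF7KO-labelled white libraries and 4.94 and 5.52 in WT white libraries (0.47, SE 0.140, 95% interval 0.15 to 0.79, adjusted p = 0.121). Wiz had 4.78 and 4.57 FPKM in ATF7KO-labelled white libraries and 4.04 and 3.74 in WT white libraries (0.22, 95% interval 0.01 to 0.42, adjusted p = 0.237).

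Ehmt2, the writer linked to ATF7, had 21.5 and 23.3 FPKM in ATF7KO-labelled white libraries and 18.6 and 19.8 in WT white libraries (0.21, 95% interval -0.02 to 0.44, adjusted p = 0.283). Setdb2 had 1.48 and 1.45 FPKM against 1.26 and 1.23 in WT white libraries (0.14, 95% interval -0.08 to 0.35). For these 5 genes both ATF7KO-labelled libraries lay above both WT libraries. The labels did not overlap for 53.4% of all entries. Ehmt1, Suv39h1, Setdb1, Trim28 and the untested Suv39h2 overlapped. Other cell states moved with the label in white cultures: 6 of 12 macrophage markers passed and were higher in ATF7KO-labelled libraries (median log2 difference 0.73). Of 10 adipocyte markers, 2 passed and were lower, Cidec (-0.73) and Cd36 (-0.67), with 6 at an unadjusted p under 0.05 and a median of -0.27. Of 9 preadipocyte markers tested, Pi16 passed and was higher (0.71, list median 0.24). Mki67, a marker of dividing cells, had 2.91 and 2.77 FPKM in ATF7KO-labelled white libraries and 1.54 and 1.31 in WT white libraries (0.66, adjusted p = 0.0269). Of the 18 cell cycle genes tested, 5 reached 1 FPKM only in ATF7KO-labelled white libraries, among them Cdc20, which was listed at 0 in every other group, and their calls are not counted here. The hypoxia and HIF targets had a median of 0.39 with 0 of 18 passing (6 at an unadjusted p under 0.05), beside 0.03 over all entries. The part of these groups in the eraser values was not tested.

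In beige adipocytes fewer entries passed between the labels than in white ones. None of the 9 genes passed (0 of 9, limma, with 1 at an unadjusted p under 0.05), beside 0.151% of all entries passing and 10.3% at an unadjusted p under 0.05. The labels did not overlap for 4 of the 9 genes and for 41.2% of all entries. Log2 differences ran between -0.15 for Kdm4b and 0.23 for Suv39h1. Suv39h1 and Setdb2 differed less between the labels in white cultures (0.025 and 0.135) than in beige ones. Setdb2 had 2.73 and 2.61 FPKM in ATF7KO-labelled beige libraries and 2.25 and 2.06 in WT beige libraries (0.22, SE 0.095, unadjusted p = 0.0472, adjusted p = 0.478). Suv39h1 had 1.73 and 1.58 FPKM in ATF7KO-labelled beige libraries and 1.53 and 1.01 in WT beige libraries (95% interval -0.07 to 0.53). For Kdm3a the interval was -0.42 to 0.25 and for Ehmt2 -0.33 to 0.13. A change of the size seen in white cultures for Kdm3a thus lay outside its interval in beige cultures. Of 11 thermogenic markers tested, 0 passed and 7 had an unadjusted p under 0.05 (limma, median 0.41, beside 0.04 over all entries). Medians were -0.28 for hypoxia and HIF targets (0 of 18 passing) and -0.22 for preadipocyte markers (0 of 9 passing). The part of these lists in the values of the members was not tested.

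The difference between the beige and white effects of the label was itself tested. For Kdm3a the beige against white difference was smaller in ATF7KO-labelled than in WT cultures (interaction on the log2 scale -0.71, SE 0.211, 95% interval -1.19 to -0.23, unadjusted p = 0.00915, limma adjusted p = 0.189). For Kdm4b the interaction was -0.62 (SE 0.198, 95% interval -1.07 to -0.17, adjusted p = 0.204), for Ehmt2 -0.32 (adjusted p = 0.308) and for Wiz -0.31 (adjusted p = 0.287). None of the 9 genes passed (0 of 9, with 3 at an unadjusted p under 0.05), and 0.292% of all entries did, with 16.8% at an unadjusted p under 0.05. Of the hypoxia and HIF targets, 0 of 18 passed and 9 had an unadjusted p under 0.05 (median interaction -0.67, beside 0.01 over all entries). Macrophage markers behaved alike, with 0 of 12 passing and 9 at an unadjusted p under 0.05 (median -0.70). Of these 12, 4 reached 1 FPKM only in white cultures. List medians were -0.34 for cell cycle genes and -0.27 for preadipocyte markers, but 0.25 for adipocyte and 0.38 for thermogenic markers. The part of any of these groups in the eraser values was not tested.

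In C3H10t1/2, where the overexpression itself was plain in the Atf7 values, none of the 9 genes passed (0 of 9, limma, with 2 at an unadjusted p under 0.05), beside 1.49% of 9981 entries passing and 17.2% at an unadjusted p under 0.05. Ehmt2 had 20.5 and 20.1 FPKM in ATF7-overexpressing libraries and 20.4 and 20.0 in control libraries, with an interval of the log2 difference of -0.15 to 0.16. Ehmt1 had 6.58 and 5.86 FPKM in ATF7-overexpressing libraries and 6.58 and 6.61 in control libraries (95% interval -0.27 to 0.12). For both enzymes the interval left room only for small changes in either direction. Setdb2 had 1.96 and 1.58 FPKM in ATF7-overexpressing libraries and 0.975 and 1.37 in control libraries (0.36, SE 0.133, 95% interval 0.03 to 0.68, unadjusted p = 0.0363, adjusted p = 0.252). Kdm4b had 5.79 and 5.85 FPKM in ATF7-overexpressing libraries and 7.61 and 6.54 in control libraries (-0.24, SE 0.088, unadjusted p = 0.0327, adjusted p = 0.242). Kdm3a overlapped, with 6.43 and 6.96 FPKM in ATF7-overexpressing libraries and 8.58 and 6.63 in control libraries (-0.15, 95% interval -0.44 to 0.14). Trim28 (16.8 and 16.4 against 16.2 and 16.3 FPKM in control libraries) stayed within an interval of -0.12 to 0.19, and Setdb1, Suv39h1, Suv39h2 and Wiz overlapped. Without overlap were 4 of the 9 genes and 49.1% of all entries. In the same libraries 7 of 9 thermogenic genes tested were lower with overexpression, among them Ucp1 (-2.16) and Cidea (-1.79).

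Genes that work beside these enzymes were read from lists, whose counts stand beside 53.7% of all entries passing in WT, 21.6% higher and 32.1% lower in beige. Of 8 readers of H3K9 methylation, 0 were higher and 4 lower in WT beige than in WT white cultures (median -0.37): Spin1 (-0.998), Uhrf1 (-0.78), which binds newly replicated DNA, Cbx5 (-0.46), which encodes HP1α, and Mphosph8 (-0.45), a subunit of the HUSH silencing complex. Of 8 tested partners of SETDB1, 0 were higher and 5 lower (median -0.32): Trim24 (-0.57), a relative of Trim28, Chaf1a (-0.62), a chromatin assembly factor of replication, Atf7ip (-0.39), which stabilises SETDB1, and the HUSH genes Fam208a (-0.31) and Pphln1 (-0.32). The last of these, Pphln1, was named after its value was seen. Of 12 partners of the EHMT and SUV39 enzymes, 3 were lower and 0 higher (median -0.07): the DNA methyltransferase Dnmt1 (-1.003), Hells (-0.53) and Hdac2 (-0.33). Of 8 other H3K9 demethylases tested, 1 was lower and 0 higher, Kdm7a (-0.28, list median -0.07). Spin1 had 8.003 and 6.15 FPKM in WT beige libraries and 14.2 and 15.9 in WT white libraries, and Dnmt1 had 1.19 and 1.25 FPKM against 3.50 and 3.39. In both, the WT beige libraries stood far below the WT white ones. Uhrf1 reached 1 FPKM only in ATF7KO-labelled white libraries, and Chaf1a and Hells only in white libraries of both labels, so they could enter the test only through cultures where they were high. Lists of 8 or 12 genes are short, and no list's count was tested against the share of all entries.

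In ATF7KO-labelled cultures, where 61% of all entries passed, 26.6% higher and 34.3% lower in beige, 3 of 8 readers were lower in beige and 0 higher (Uhrf1 -1.19, Spin1 -0.99, Cbx5 -0.46; median -0.11), as were 3 of 8 SETDB1 partners (Chaf1a -0.92, Trim24 -0.62, Atf7ip -0.35; median -0.22), shares near that of all entries, and Uhrf1 and Chaf1a had entered the test only through white libraries. Of the EHMT and SUV39 partners, 3 of 12 were lower (Dnmt1 -1.25, Hdac2 -0.33, Hells -0.37) and 2 higher (Pcgf6 0.54 and L3mbtl2 0.29, a pair of subunits of the E2F6 repressor complex), with a median of -0.09. Of the other demethylases, 5 of 8 were lower and 0 higher (median -0.29), led by Phf2 (-0.39), Kdm4c (-0.41), Phf8 (-0.39) and Kdm3b (-0.31). Kdm3b, a paralogue of Kdm3a, and Kdm4c, a paralogue of Kdm4b, were thus lower in beige where Kdm3a was higher. Jmjd1c (-0.035), a further paralogue of Kdm3a, and Kdm4a (0.196), a further paralogue of Kdm4b, did not pass there. In WT cultures Kdm3b (-0.056) and Kdm4c (-0.169) did not pass either. Between the labels in either culture, and with overexpression, 0 genes of these 4 lists passed (limma). At an unadjusted p under 0.05 there were 1 reader in white cultures, 2 SETDB1 partners and 1 EHMT or SUV39 partner in beige cultures, and 1 EHMT or SUV39 partner with overexpression.

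**Figure D4:**
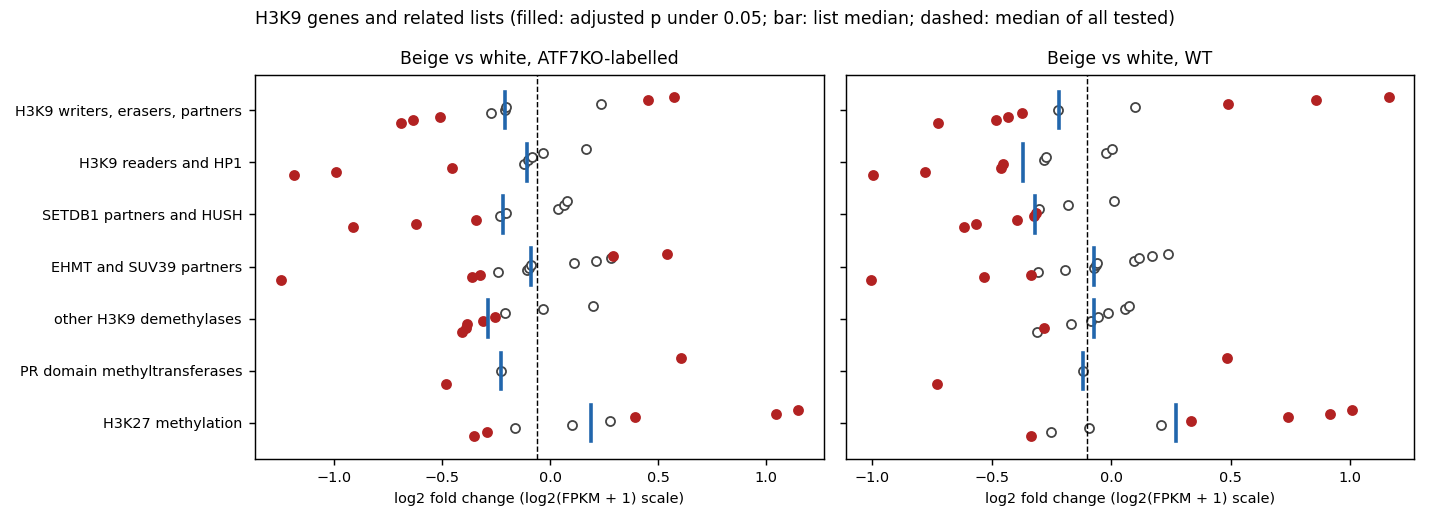
Log2 differences (log2(FPKM + 1) scale) of beige against white cultures for the 9 tested H3K9 genes and for 6 related lists, ATF7KO-labelled on the left and WT on the right; filled points passed, bars are list medians and the dashed line is the median of all entries tested. Readers and SETDB1 partners that passed lie left of the line, and the H3K9 genes lie on both sides.

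Over all groups, Kdm3a averaged 9.64 ± 2.27 FPKM in ATF7KO-labelled beige and 10.2 ± 0.0740 in WT beige libraries, 6.69 ± 0.576 in ATF7KO-labelled white and 4.004 ± 0.530 in WT white libraries, and 6.70 ± 0.376 in ATF7-overexpressing and 7.60 ± 1.38 in C3H10t1/2 control libraries (SD, n = 2 each). From high to low the order was WT beige, ATF7KO-labelled beige, control, ATF7-overexpressing, ATF7KO-labelled white and WT white, and only WT white stood clear of its neighbour in that order. Ehmt2 averaged 13.5 ± 1.36 FPKM in ATF7KO-labelled beige and 14.6 ± 0.297 in WT beige libraries, 22.4 ± 1.24 in ATF7KO-labelled white and 19.2 ± 0.842 in WT white libraries, and 20.3 ± 0.305 in ATF7-overexpressing and 20.2 ± 0.288 in control libraries (SD, n = 2 each). Both beige groups were lowest and overlapped each other, as did both C3H10t1/2 groups. Although C3H10t1/2 cells were also given rosiglitazone, their Ehmt2 level lay between those of the ATF7KO-labelled white and WT white cultures. Trim28 averaged 16.6 ± 0.247 FPKM in ATF7-overexpressing and 16.2 ± 0.0516 in control C3H10t1/2 libraries, between the beige primary cultures (14.4 ± 0.722 in ATF7KO-labelled and 14.4 ± 0.380 in WT) and the white ones (22.9 ± 0.105 in ATF7KO-labelled and 24.4 ± 2.42 in WT). Setdb2 was highest in ATF7KO-labelled beige libraries (2.67 ± 0.0867 FPKM), next in WT beige (2.15 ± 0.137) and ATF7-overexpressing libraries (1.77 ± 0.266), and each of these was clear of the next in the order. Wiz reached 4.78 to 5.72 FPKM in C3H10t1/2, and its highest primary value, in an ATF7KO-labelled white library, lay just below that range.

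Over the 12 libraries, which share their groups and cell sources, the log2 values of Kdm3a and Kdm4b ran together (Pearson's r = 0.91), as did Setdb1 with Trim28 (0.83) and with Ehmt2 (0.82). Kdm3a ran against Trim28 (-0.82), and Setdb2 against Ehmt2 (-0.80). Among 9605 entries compared, the genes most like Ehmt2 were Rnf145 (0.993), Dock4 (0.980) and Thra (0.979), and those most like Ehmt1 were Smarca4 (0.937), Nsf (0.927) and Taf1c (0.927). For Setdb1 they were Pfn2 (0.979), Sh3bp5 (0.955) and Gabbr1 (0.953), and for Kdm3a Ffar4 (0.947), Gys1 (0.947) and Igf2bp2 (0.939). These correlations describe the order of libraries and carry no test.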

How the data were processed

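RNA sequencing values of 12 libraries were used, grouped by their labels into 6 groups of 2. Per the labels' protocols, TRIZOL was used for total RNA, and directional libraries depleted of ribosomal RNA were read on a NextSeq500, 36 bases from each end. The FPKM values were computed by the authors and deposited per gene, with mm10 as the build named in the submitters' processing notes. Aligner, quantifier, annotation and filters were not given in the sources used here. Counts and reads were not analysed here, so the depth is unknown. The tables of the libraries were joined by gene and locus, and 1 was added to the deposited starts.

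Differences were tested with limma 3.58.1 (eBayes with trend, two-sided) in R 4.3.3 on log2(FPKM + 1), which understates changes of low genes, for entries that reached 1 FPKM in 2 or more libraries. The 8 primary libraries were fitted together (11294 entries, 4 residual degrees of freedom) and the 4 C3H10t1/2 libraries alone (9981 entries, 2 residual degrees of freedom). P-values were adjusted by Benjamini-Hochberg over all entries tested, in each of 6 comparisons. The script was tested on simulated data. The 7 alternative settings were a pseudocount of 0.1, no filter, quantile normalization, median centring, a replicate block, 1 fit of all libraries and leaving out small and predicted RNA genes, beside leaving out each library. The members and the 13 lists (140 genes, all matched) were chosen with earlier results of these data known. All members are named, and of each list up to 4 genes that passed, by lowest p. For 4 members the 3 genes with the most similar values over the 12 libraries are named. Promoters came from RefSeq (GRCm38.p6) and exon overlaps from GENCODE M21.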

Additional observations from a re-analysis of the deposited data

Results flagged for a closer look

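Wiz was the member whose ATF7KO-labelled libraries lay on opposite sides of WT in the 2 cultures. It had 3.99 and 3.85 FPKM in ATF7KO-labelled beige libraries, below the 4.41 and 4.08 of WT beige libraries, and 4.78 and 4.57 FPKM in ATF7KO-labelled white libraries, above the 4.04 and 3.74 of WT white libraries. The difference between these effects, tested as an interaction with limma, was -0.306 on the log2 scale (SE 0.13, unadjusted p = 0.0439, adjusted p = 0.287), so it did not pass. Of its exon bases, 22.1% are shared with Gm26858 on the other strand.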

How the results depend on the processing

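Groups of 2 libraries, FPKM in place of counts and an unknown depth limit the precision. Of 378 member values under the 7 alternative settings, 357 kept their direction and their side of the threshold, 4 lost a call, 5 gained one and 12 reversed, none of these beyond -0.072. Of 396 values with 1 library left out, these numbers were 361, 9, 4 and 22. The replicate numbers did not pair the libraries (correlation of deviations -0.1 to 0.15), and a fit with the replicate block gave 27 entries called for ATF7KO-labelled against WT beige, in place of 17, and 88 for overexpression against control, in place of 149, and changed no member's call. Fitting all 12 libraries together called 26 entries for ATF7KO-labelled against WT beige, 642 for white in place of 213 (with 1 member called) and 116 for the interaction in place of 33. A pseudocount of 0.1 gave 54 entries for white and 20 for the interaction, no filter 122 for white and 22 for overexpression, quantile normalization 387 for white, and leaving out small and predicted RNA genes 234 for overexpression. The cause was not tested. With 1 library left out, entries called ran from 5 to 20 in beige, 23 to 277 in white (0 to 1 members), 16 to 43 for the interaction and 17 to 138 for overexpression.

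Beige against white, other scalings moved the median of all entries, at -0.098 in WT, to 0.017 (quantile), 0.011 (median centring) or -0.197 (no small and predicted RNA), with 40.2% of calls higher against 50.9%, 51.4% and 32%. In ATF7KO-labelled cultures the share was 43.7% against 52.8%, 52.8% and 35.5%, in ATF7KO-labelled against WT white 67.1% against 50.4% (quantile), 52.8% (median centring) and 53.7% (pseudocount 0.1), and for overexpression 28.9% against 50% without small and predicted RNA.

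Reversed log2 values were, in ATF7KO-labelled against WT beige, Ehmt1 -0.00497, Setdb1 -0.00679 and Trim28 -0.072 with quantile normalization and Setdb1 -0.0192 and Trim28 -0.0294 with median centring. In ATF7KO-labelled against WT white they were Ehmt1 -0.00161 and Suv39h1 -0.0366 (quantile) and Ehmt1 -0.00547 and Suv39h1 -0.0054 (median centring). Quantile normalization also gave Suv39h1 0.0328 for ATF7KO-labelled beige against white and Ehmt1 -0.00336 for the interaction, and without small and predicted RNA Wiz was 0.000134 with overexpression. With 1 library left out, ATF7KO-labelled against WT beige ran from -0.11 to 0.183 for Ehmt1, -0.0475 to 0.0485 for Trim28, -0.304 to 0.135 for Kdm3a and -0.319 to 0.0176 for Kdm4b. In white, Ehmt1 ran from -0.038 to 0.0888, Suv39h1 from -0.065 to 0.116, Setdb1 from -0.0101 to 0.19 and Trim28 from -0.185 to 0.00952. The interaction ran from -0.135 to 0.158 for Ehmt1, -0.18 to 0.0209 for Setdb1 and -0.00901 to 0.185 for Trim28, and overexpression from -0.00798 to 0.0212 for Ehmt2, -0.0682 to 0.137 for Setdb1, -0.16 to 0.0476 for Wiz and -0.316 to 0.0119 for Kdm3a.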

Other observations

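Genes of H3K27 methylation, another silencing mark, were read beside those of H3K9. In WT cultures 4 of 8 tested were higher and 1 lower in beige than in white (limma, adjusted p under 0.05; list median 0.27), beside 21.6% higher and 32.1% lower of all entries tested, with a median of -0.10. Jarid2 (1.01) and Suz12 (0.91), which encode subunits of the Polycomb repressive complex PRC2, and Kdm6b (0.74), a demethylase of the mark, were the higher genes with the lowest p, and Ezh1 (0.33), the PRC2 enzyme of resting cells, was the other. Ezh2 (-0.34), the PRC2 enzyme of dividing cells, was the lower one, named after its value was seen. In ATF7KO-labelled cultures Jarid2 (1.15), Suz12 (1.04) and Kdm6b (0.39) were higher in beige and Ezh2 (-0.35) and Ezh1 (-0.29) lower. Of all entries tested there, 26.6% were higher and 34.3% lower. Ezh1 thus lay on opposite sides in the 2 labels, but its interaction did not pass (-0.62, limma adjusted p = 0.125).

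Of the PR domain methyltransferases, Prdm16, which directs brown and beige fate, was higher in beige (0.61 in ATF7KO-labelled and 0.48 in WT cultures), the cultures in which alone it reached 1 FPKM. Mecom, which encodes the PRDM16 relative PRDM3, had 5.68 to 7.12 FPKM in C3H10t1/2 libraries and 0.0917 to 0.324 in primary libraries.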
